A study of Mus musculus with 18 samples.

Results

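The baseline transcriptome described here is that of oocytes from XX females without a transgene, the reference genotype of a series on Zfy1 and Zfy2, zinc finger genes of the Y chromosome. It was read from all 3 arrays titled as XX wild type, out of 18 arrays in 6 genotypes. The oocytes were at the germinal vesicle stage, fully grown and arrested in the prophase of the first meiotic division. Each array held the RNA of a pool of about 100 cells from at least 2 females aged 4 weeks, collected 45 to 48 hours after an injection of PMSG, a hormone that drives follicle growth, with the cumulus cells stripped off by pipetting. All genotypes shared the MF1 outbred albino background of 1 colony, so a pool mixes animals that are not genetically identical. XX oocytes are set beside the pair of groups most like them, oocytes with a non-functional Zfy2 transgene (Zfy2_nf) and with a single-copy Zfy1 transgene (Zfy1_lo), which have the same batch and the same split over slides. The multi-copy Zfy1 (Zfy1_hi), Zfy2, and Zfy2 with Eif2s3y (Zfy2_Eif2s3y) groups entered the fits and the spreads. The last of these carried Eif2s3y in only some of the cells and was called contaminated by the submitters.

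A gene was called detected when a probe of it had a detection p-value under 0.05, its signal being above nearly all negative control beads, on all 3 XX arrays. Genes were ranked by the mean log2 intensity of the brightest such probe after background correction and quantile normalization. Of 19053 named genes, 8657 (45.4%) were detected on all 3 XX arrays, 3016 (15.8%) by some probe on 1 or 2 of them, and 7380 (38.7%) on none. The detected genes spanned 4.89 to 13.53 on the log2 scale with a median of 7.78. The top decile, 866 genes at 10.42 or more, is called strong below, and the lowest decile, 866 genes from 4.89 to 5.59, is called weak. Brightness depends on a probe's sequence as well as on its transcript, so the order is one of probes, not of transcript numbers. Of the 3248 detected genes with several detected probes, 2004 (61.7%) had probes at least 2-fold apart.

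A fully grown oocyte makes nearly all the RNA and protein that the early embryo will use, stores much of its mRNA in an untranslated form, and then falls silent in transcription until after fertilization. It builds the zona pellucida, the glycoprotein coat that sperm bind, and secretes growth factors that act on the granulosa cells around it. FIGLA, a basic helix-loop-helix factor, drives the zona genes through E-boxes, and the homeobox factor NOBOX acts on further oocyte genes.

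The 4 genes that mark the cells were all strong. Gdf9, a TGF-beta family ligand that acts on cumulus cells, read 13.25, 13.21 and 13.09 on XX arrays 1, 2 and 3 (mean 13.18 ± 0.09, SD, n = 3). Nlrp5 (MATER), a subunit of the subcortical maternal complex, read 13.01, 13.01 and 12.90 (12.98 ± 0.07). These values put Gdf9 at rank 7 and Nlrp5 at rank 9 among the 8657 detected genes. Bmp15, the partner ligand of Gdf9, read 12.28, 12.47 and 12.87 (12.54 ± 0.30), the widest spread of the 4. Zp3, the zona protein long studied as a sperm receptor, read 10.86, 10.88 and 10.91 (10.88 ± 0.03), the narrowest. The oocyte part of the label therefore held against its markers on each array. These genes do not test the genotype, as Nlrp5 also averaged 12.81 in Zfy2_nf and 12.79 in Zfy1_lo.

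The promoter windows of 3 of these markers are shown because their genes define the cell. The sequences are from RefSeq (GRCm38.p6), each 300 bases on the strand of the gene, with 250 bases before its start and 50 after. Capitals mark every match, on either strand, to the E-box CANNTG, the TATA sequence TATAAA, and the homeobox-type sequences TAATTG and TAATTA. Matches of different motifs may share letters. The windows lie at chr5:135979855-135980154 (plus strand) for Zp3, chrX:6320675-6320974 (minus strand) for Bmp15, and chr7:23403852-23404151 (plus strand) for Nlrp5, the one listed first of 2 for that gene.
Zp3: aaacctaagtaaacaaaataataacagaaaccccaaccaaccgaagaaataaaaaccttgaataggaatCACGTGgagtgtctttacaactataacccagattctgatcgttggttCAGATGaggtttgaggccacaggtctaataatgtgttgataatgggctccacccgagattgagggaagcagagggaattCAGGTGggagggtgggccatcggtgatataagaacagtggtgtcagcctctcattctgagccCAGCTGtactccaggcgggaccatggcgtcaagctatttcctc
Bmp15: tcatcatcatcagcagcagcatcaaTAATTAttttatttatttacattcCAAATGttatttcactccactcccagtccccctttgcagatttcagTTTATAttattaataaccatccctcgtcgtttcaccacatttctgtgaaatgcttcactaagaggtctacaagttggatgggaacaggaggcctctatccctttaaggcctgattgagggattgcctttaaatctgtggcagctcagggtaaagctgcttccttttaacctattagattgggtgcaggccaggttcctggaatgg
Nlrp5: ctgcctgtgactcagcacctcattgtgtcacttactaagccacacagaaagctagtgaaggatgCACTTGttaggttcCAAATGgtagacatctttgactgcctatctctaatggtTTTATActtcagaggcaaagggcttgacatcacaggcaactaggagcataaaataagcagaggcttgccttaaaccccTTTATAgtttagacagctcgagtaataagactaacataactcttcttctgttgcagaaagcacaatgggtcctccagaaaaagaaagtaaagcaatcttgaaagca

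The Zp3 window held 4 E-boxes, the nearest upstream one starting 55 bases before the gene start, and no TATAAA. The Bmp15 window held 1 E-box, 1 TATAAA and 1 TAATTA, and the Nlrp5 window held 2 E-boxes and 2 TATAAA. Over the 27025 genes with a promoter in the table, 72.1% of windows held CANNTG, 14.2% TATAAA, 8.15% TAATTG and 5.31% TAATTA. Windows of the 7103 detected genes in the table held them in 63.3%, 7.11%, 5.18% and 2.87%. Windows of the 713 strong genes in the table held them in 63.4%, 7.85%, 4.77% and 2.10%, and windows of the 5730 genes detected on no XX array in 72.4%, 19.2%, 9.13% and 6.77%. The windows also differed in base composition, with a median of 24 CpG dinucleotides in the strong genes, 18 in the weak genes and 6 in the undetected ones, beside 7 over the whole table. A match of letters is a description and shows no binding.

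**Figure D1:**
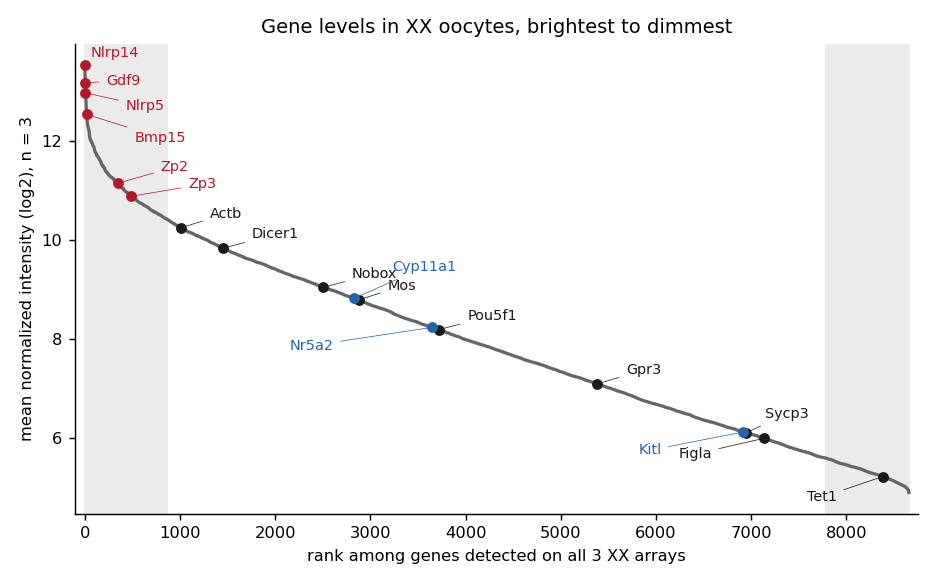
Mean normalized intensity (log2, mean of the 3 XX arrays) of the 8657 detected genes against rank, with the strong and weak deciles shaded. Red marks oocyte genes of the strong decile, black other oocyte or general genes, and blue markers of granulosa cells. Nlrp14, Gdf9, Nlrp5 and Bmp15 sit at the top of the curve, and Cyp11a1 (8.82) is the highest of the granulosa markers.

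Nlrp14, an NLR-family gene of germ cells, was the brightest named gene, at 13.38, 13.61 and 13.61 (13.53 ± 0.13). Among those that followed were Psmd4, the ubiquitin receptor of the proteasome (13.46 ± 0.13), Rpl23 of the large ribosomal subunit (13.42 ± 0.09), Zbed3, a partner of the subcortical maternal complex (13.27 ± 0.21), and Ctcfl, the paralogue of the insulator protein CTCF (13.22 ± 0.12), at rank 6. Dnmt1, the maintenance DNA methyltransferase, read 13.06, 13.16 and 13.16 (13.12 ± 0.06).

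The 25 brightest genes given here leave out those with clone or expressed-sequence names, at ranks 5 and 14. Further genes of the 25 were Pramel25 (12.92), the transcribed pseudogene Ubb-ps of the ubiquitin gene Ubb (12.91), Omt2a (12.82), Mis18a, which helps to load the centromeric histone (12.76), Plekhg3 (12.73), Oas1d (12.64), Elobl (12.63), the X-linked Xlr4a (12.55) and the secreted oocyte protein gene Oosp1 (12.54). The rest included Tubb2b, a beta-tubulin gene (12.95), Foxj3 (12.52), Ftdc1 (12.47), the endoplasmic reticulum stress sensor Ern1 (12.47), the sheddase Adam17 (12.47), Timm9 of mitochondrial protein import (12.46) and Rhpn2 (12.39). SDs within these 25 genes ran from 0.04 for Tubb2b to 0.30 for Bmp15. Quantile normalization gives every array the same set of values, so a difference at the very top is an exchange of rank between arrays. For some of these genes the rank rests on 1 probe of several. Tubb2b stood at percentile 67.5 and Ern1 at 87.3 when the detected probes were averaged. The other 23 and the zona genes Zp1 to Zp3 kept percentiles above 90. This average left out probes not detected on all 3 arrays. Plekhg3 had probes at 12.73, 7.14 and 4.38, Adam17 at 12.47 and 7.85, and Rpl23 at 13.42, 11.54, 5.51 and 4.83. Omt2a had both at 12.82 and 12.68, and some of the 25, such as Gdf9, have only 1 probe.

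**Figure D2:**
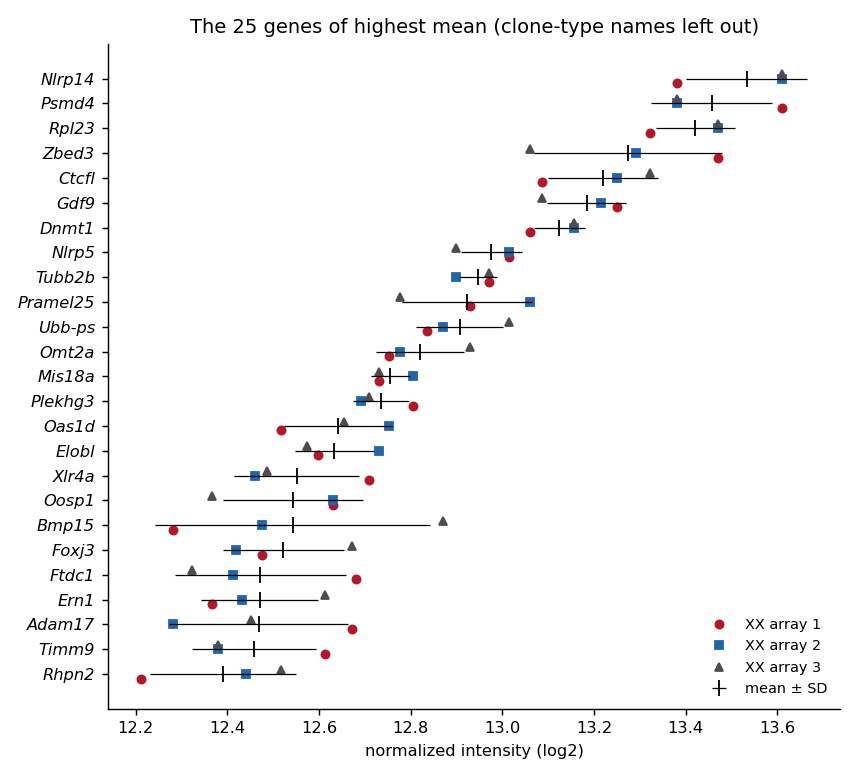
Normalized intensity (log2) of the 25 genes of highest mean, clone-type names left out, on each of the 3 XX arrays, with the mean and SD (n = 3). Neighbours in the order overlap, and Bmp15 has the widest spread, from 12.28 to 12.87.

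The zona and surface genes were detected in 8 of 10 cases, 5 of them strong. Percentages of detected members are read against 45.4% of all named genes. Zp2, the zona protein that sperm bind and that is cleaved after fertilization, read 11.40, 11.20 and 10.85 (11.15 ± 0.28), and Zp1, which cross-links the coat, 10.41, 10.26 and 10.60 (10.43 ± 0.17). Oosp1 (12.54) and Oosp2 (11.74), secreted proteins of the oocyte, were strong as well. Izumo1r (JUNO), the receptor for the sperm protein IZUMO1, lay at 6.94 ± 0.24, and Cd9, a membrane protein needed for fusion, at 6.15 ± 0.31. Cd81 was detected on none of the 3 arrays.

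All 8 growth factors and receptors were detected, over a wide range. Kit, the receptor for the granulosa ligand KITL, read 10.02, 10.17 and 10.10 (10.09 ± 0.08). The BMP receptor Bmpr2 stood at 9.50 and the ligand Bmp6 at 9.27, while Fgf8, which acts on cumulus metabolism, lay at 5.73 ± 0.56 with arrays from 5.18 to 6.30. The oocyte factors Gdf9 and Bmp15 were the 2 strong members.

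Transcription factors of the oocyte were detected in 13 of 16 cases, with a median of 8.19. The homeobox genes Obox1 (11.81, 12.24 and 11.96) and Obox5 (11.19 ± 0.18) were strong. Nobox read 8.99, 9.18 and 8.95 (9.04 ± 0.13), Lhx8, needed to form growing follicles, 9.11 ± 0.07, and Foxo3, which holds follicles dormant, 10.18 ± 0.14. Figla was dim at 6.04, 5.92 and 6.01 (5.99 ± 0.06), and its 3 arrays were close together. Sohlh2 (5.65) and Sohlh1 (5.64), factors of early follicle growth, were near the weak decile.

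All 16 genes of the subcortical maternal complex and its Nlrp relatives were detected, 8 of them strong. The complex lies under the oocyte membrane and is needed for the first embryonic cleavages. Padi6 (12.24 ± 0.10), Ooep (12.24 ± 0.03) and Tle6 (12.04 ± 0.13) were strong, and Khdc3 (FILIA) read 8.94, 9.24 and 9.63 (9.27 ± 0.34). Of 17 Nlrp genes named on the array, 12 were detected, from Nlrp2 (6.61 ± 0.34) to Nlrp14. Those detected on none were Nlrp3, Nlrp6, Nlrp12 and Nlrp1a, which serve innate immunity, while Nlrp10 was detected on 2 arrays.

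Values of multigene families carry the limit that near-identical copies may share a probe's signal. The array names 13 genes between Fbxw13 and Fbxw28, which encode F-box proteins, and not every number has a gene there. All 13 were detected and 8 were strong, with Fbxw18 at 12.34 ± 0.15, Fbxw15 at 12.22 ± 0.19 and the dimmest, Fbxw17, at 6.94 ± 0.35. Of 6 Obox genes 5 were detected, with Obox6 on 1 array. All 7 Xlr genes were detected, between Xlr5c at 5.55 and Xlr4a at 12.55. Of 30 Oog and Pramel genes, 16 were detected, 4 of them strong, and 11 were on no array.

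Genes that store maternal mRNA were all detected, 14 of 14. Eif4e1b, an oocyte form of the cap-binding factor, read 12.23, 12.30 and 12.39 (12.31 ± 0.08), Lsm14b 12.11 ± 0.16 and Lsm14a 11.49 ± 0.07. Ybx2 (MSY2), the main mRNA-masking protein of the oocyte, stood at 10.78 ± 0.09, the RNA-binding protein gene Dazl at 10.45 ± 0.06 and Cpeb1, which controls cytoplasmic polyadenylation, at 9.45 ± 0.09. The genes for removal of maternal mRNA, which is carried out later, were present too, with 14 of 17 detected and 5 strong. The deadenylase gene Cnot6l read 11.30, 11.35 and 11.35 (11.34 ± 0.03), the adaptor Btg4 11.28 ± 0.11, the decapping cofactor Dcp1a 11.20 ± 0.03, Cnot3 10.57 ± 0.15 and Cnot7 10.43 ± 0.17. Zfp36l2, an AU-rich element binding protein, was not detected on any XX array by its 1 probe.

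Of 36 genes of meiotic arrest and maturation, 33 were detected. The arrest is held by a receptor, GPR3, that keeps cyclic AMP high, and by kinases that keep CDK1 inactive. Gpr3 read 7.03, 7.09 and 7.15 (7.09 ± 0.06), the inhibitory kinase Wee2 8.74 ± 0.05, the phosphodiesterase Pde3a 8.40 ± 0.15, and Cdk1 itself 7.96 ± 0.17. Mos, which later holds the second arrest, read 8.66, 8.84 and 8.86 (8.79 ± 0.11). These regulators sat near the middle of the order. Among spindle and checkpoint kinases, the strong members were Plk1 (11.21 ± 0.02), Bub1b (10.86, 11.05 and 11.10) and Aurka (10.97 ± 0.07), beside Map2k1 (10.85) of the MAP kinase cascade and the CDK subunit gene Cks1b (10.48). Fzr1 (CDH1), the activator of the anaphase-promoting complex during the arrest, differed between arrays at 9.91, 8.36 and 8.81, array 1 being the highest.

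Genes of meiotic prophase, whose main work is finished before birth, were detected in 11 of 22 cases. Syce2 (10.66 ± 0.15), of the central element of the synaptonemal complex, was strong, and Sycp2 stood at 9.41 ± 0.21. Sycp3 (6.10), Sycp1 (5.94) and Syce1 (5.29) were dim. Spo11, which makes the meiotic breaks, Rec8, Mei1, Mei4, Syce3 and Stra8 were detected on none of the 3 arrays, and Dmc1 on 1.

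Of 32 chromatin genes 30 were detected and 14 were strong. The Dnmt1 partner Uhrf1 read 12.13, 11.92 and 11.99 (12.01 ± 0.11), the nucleoplasmin Npm2, which remodels sperm chromatin, 11.89 ± 0.11, the oocyte linker histone H1f8 11.65 ± 0.13 and Dppa3 (STELLA), which protects maternal methylation, 11.27 ± 0.01. Dnmt3l (10.60 ± 0.11), the cofactor for imprint setting, was strong, and the enzyme gene Dnmt3a (7.86 to 8.15) was near the middle of the order. The Polycomb genes Suz12 (11.26), Ezh2 (10.85) and Eed (10.51) were all strong. Tet3, the oxidase of the paternal genome, stood at 9.07 ± 0.15 and Tet1 at 5.22 ± 0.12, in the weak decile. Kmt2a was detected on no XX array and Ehmt2 on 1.

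The small RNA pathway was detected in 16 of 22 cases. Piwil1, a Piwi protein, read 10.50, 10.80 and 10.89 (10.73 ± 0.20), and the piRNA cofactors Tdrkh (10.60 ± 0.22) and Asz1 (10.34 ± 0.05) were next. Drosha (10.14 ± 0.09) and Dicer1 (9.83 ± 0.06), the nucleases that make microRNAs and endogenous siRNAs, were well above the median. Ddx4 (VASA), the germ-line helicase, differed between arrays at 8.20, 8.72 and 9.39, with array 3 the highest. Ago2, Ago1 and Ago4 were each detected on 1 array, while Ago3 stood at 7.45 ± 0.07.

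Of 56 ribosomal protein genes 50 were detected, 17 of them strong, among them Rpl23, Rpl41 (11.78 to 12.19), Rps12 (11.97) and Rpl38 (11.77). Of 18 chaperone genes 15 were detected and 11 strong, led by Dnajb1 (11.98 ± 0.09), Hsp90aa1 (11.91 ± 0.06) and Hspa8 (11.45 ± 0.14). The stress-inducible Hspa1a and Hspa1b were detected on no XX array. Of 25 proteasome and ubiquitin genes 24 were detected and 9 strong, led by Psmd4 and Psma2 (12.26 ± 0.11). Among 18 actin and tubulin genes 15 were detected, with the formin Fmn2 (10.20 ± 0.15) and Spire1 (10.08 ± 0.12), which nucleate the actin that moves the spindle, and Actb (10.25 ± 0.14) just under the strong limit.

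An oocyte takes up pyruvate from the cells around it and burns it in its mitochondria, and it uses little glucose itself. Of 34 respiratory genes 33 were detected and 12 strong, with Cox6c at 11.36, 11.34 and 11.33 (11.34 ± 0.01), Ndufb8 at 11.30 and Ndufv2 at 10.97. Of 23 genes of pyruvate use and the tricarboxylic acid cycle 18 were detected, with Suclg1 (10.74) the 1 strong member and Pdha1, of the pyruvate dehydrogenase complex, at 7.98 ± 0.34. Of 16 glycolysis genes 11 were detected and none was strong, the glucose carrier Slc2a1 (10.37 ± 0.09) lying just under that limit. Gapdh, often used as a reference gene, read only 6.43, 6.09 and 6.04 (6.18 ± 0.21) on its 1 probe, and Hk1, Ldhb and Aldoc were on no array.

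Cholesterol synthesis, which in the mouse the cumulus cells largely carry out for the oocyte, was detected in 9 of 16 cases. Hsd17b7 (11.53 ± 0.22) and Idi1 (10.45 ± 0.16) were strong. Mvk, Pmvk, Tm7sf2 and Sc5d were on no array, Dhcr7 and Cyp51 on 1 and Ebp on 2. Mvd was weak at 5.24 ± 0.04.

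The pluripotency list was mixed, with 8 of 16 detected. Sall4 (10.95 ± 0.11) and Dppa5a (10.89 ± 0.25) were strong, Lin28a (9.64) and Esrrb (9.62) were above the median, and Pou5f1 (OCT4) read 8.15, 8.16 and 8.25 (8.19 ± 0.05). Nanog, Zfp42, Prdm14, Utf1, Klf2 and Tfcp2l1 were detected on none of the 3 arrays, and Sox2 on 2. Of 17 genes that mark the two-cell embryo 5 were detected, with Arg2 (9.55 ± 0.05) and Tcstv3 (8.17 ± 0.27) the brightest and Zscan4c on no array.

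**Figure D3:**
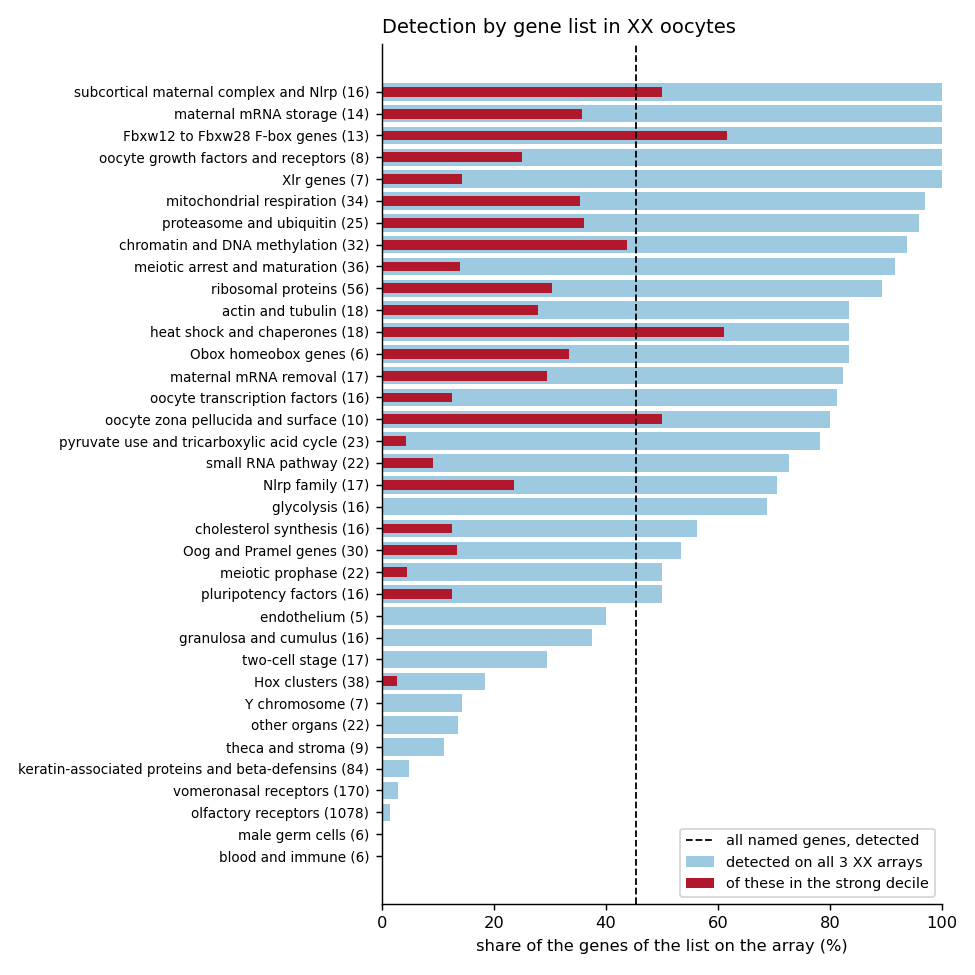
Share of each gene list (percent of its genes on the array, number in parentheses) that was detected on all 3 XX arrays (blue) and that lay in the strong decile (red), with the share of all named genes detected (45.4%) as a dashed line. Maternal, mRNA storage, respiratory and chromatin lists lie far to the right of the line, and olfactory receptors (1.48%) far to the left.

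In a pooled RNA sample, fewer cells of a type and less RNA per cell cannot be told apart. Of 16 granulosa and cumulus markers 6 (37.5%) were detected, beside 45.4% of all named genes. None was strong, and their part in the other values was not tested. Cyp11a1, the enzyme of the first steroid step, read 8.92, 8.73 and 8.82 on 1 of its 3 probes, whose other probes were not detected on all arrays. Nr5a2 read 8.49, 8.20 and 8.0, Kitl 6.12 ± 0.19, Inhba 6.10 ± 0.32, Fshr 5.95 ± 1.05 and Ptgs2 5.42 ± 0.34. Of the remaining markers, Amh, Amhr2, Foxl2, Star, Ptx3 and Hsd17b1 were detected on no XX array, Inha on 1 and Has2, Fst and Xist on 2. The summed linear level of the 16 markers was 1198 to 1338 on the XX arrays, 1227 to 1514 in Zfy2_nf and 1256 to 1440 in Zfy1_lo, so these ranges overlapped. In a linear sum the brightest markers, Cyp11a1 and Nr5a2, weigh most, so it says little about the dimmer ones.

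Theca and stroma markers were detected in 1 of 9 cases (Acta2, 6.71 ± 0.20) and endothelial markers in 2 of 5 (40%), namely Tek (7.02) and Pecam1 (6.66). None of 6 blood and immune markers and none of 6 genes of male germ cells, the protamine gene Prm1 and the transition protein genes Tnp1 and Tnp2 among them, was detected on all 3 arrays. Among 7 Y-chromosomal genes, 1 of the 2 probes of Zfy1 was detected, at 6.12, 5.94 and 5.68, in cells that carry no Y chromosome. Its mean was 5.91 in XX, 5.85 in Zfy1_lo, which carries a Zfy1 transgene, and 6.54 in Zfy2_nf. What this probe measured was not tested. Sry, Kdm5d, Usp9y, Eif2s3y and Zfy2 were on no XX array, and the brightest probe of Uty was detected on 1.

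Genes of other organs serve as a floor. Of 1078 olfactory receptor genes 16 (1.48%) were detected, of 170 vomeronasal receptors 5 (2.94%), of 84 keratin-associated protein and beta-defensin genes 4 (4.76%) and of 22 genes particular to other organs 3 (13.6%). Some of these few were bright on all 3 arrays. Olfr288 read 9.89, 9.70 and 9.65, Defb41 10.46, 10.23 and 9.96, and Vil1, which bundles actin in gut microvilli, 9.87, 9.29 and 9.96. Of 38 Hox genes, which pattern the body axis, 7 were detected, 4 of them weak. Hoxa7 was strong at 10.41, 10.58 and 10.51 (10.50 ± 0.08), Hoxd9 read 8.61 ± 0.22 and Hoxd8 7.88 ± 0.20.

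By chromosome (RefSeq annotation), 8359 of 18255 autosomal genes (45.8%) and 281 of 710 X-linked genes (39.6%) were detected, with medians of 7.78 and 7.32 and 24 strong genes on the X. Bmp15 and Xlr4a were among these. By class, 46.4% of protein-coding genes, 16.1% of 417 lncRNA genes and 29.7% of 138 transcribed pseudogenes were detected. Probes without a single gene symbol made up 2551 of the 16097 probes detected on all 3 XX arrays, and 191 of them were at or above the lowest strong gene, so the order given is one of named genes.

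The detection limit itself was crossed gradually. Steap3 (4.89), Borcs6 (4.90) and Meltf (4.92) were just inside it, with mean detection p-values of 0.041, 0.0402 and 0.0374. Mettl7a3 was just outside although it read 7.99 and 8.43 on arrays 1 and 2, because array 3 gave 4.88 with a detection p-value of 0.0534. E2f6 and Mmgt2 were each missed on 1 array as well. A gene outside the detected class may thus be bright in 1 or 2 pools.

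The median SD over the 3 XX arrays was 0.185 (log2) over the 8657 genes. It was 0.115 in the brightest decile, 0.192 in the fifth and 0.292 in the ninth, then 0.226 in the dimmest. Between arrays, 391 genes (4.52%) differed by at least 2-fold. The series calls the 3 arrays biological replicates, so their spread holds animal and technical parts alike. The median SDs of the other groups over the same genes were 0.191 in Zfy2_nf, 0.201 in Zfy1_lo, 0.174 in Zfy2, 0.163 in Zfy1_hi and 0.159 in Zfy2_Eif2s3y.

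Array 1 stood farthest from the other 2. It was the odd one in 217 of the 391 genes (55.5%), against 68 for array 2 and 106 for array 3, and in 40.6% of all detected genes. Array 1 lay on slide 2 and arrays 2 and 3 on slide 1, and across genes, which are no independent replicates, arrays 2 and 3 correlated at r = 0.985 and array 1 with them at 0.981 and 0.979. Pool and slide cannot be told apart for this array alone. Arrays 1, 2 and 3 had 19286, 19179 and 18577 probes detected and a median bead signal of 96.0, 115.0 and 103.1. In batch 1 this signal was 103.1 to 115.0 on slide 1 and 89.7 to 97.7 on slide 2, without overlap.

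The 10 genes of largest SD were mostly of middle or low level. Each was read on its brightest detected probe. Tle4, a Groucho corepressor, read 6.15, 7.18 and 8.88 (SD 1.38), and this probe was as variable elsewhere, with a pooled SD of 1.29 in the other groups. Its other probes read 6.62, 6.81 and 5.94, and 5.91, 4.97 and 5.36, without the rise on array 3. Fam20b, a xylose kinase of proteoglycan synthesis, read 4.96, 7.53 and 6.32 (SD 1.29), and Snn read 7.70, 5.85 and 5.60 (SD 1.15). Pcid2 read 8.45, 6.52 and 6.76 against a pooled SD of 0.52 elsewhere. The FSH receptor gene Fshr, a granulosa marker, read 5.01, 7.08 and 5.76, highest on array 2. Its other probes were dimmer and also highest on array 2, at 5.21 and 5.39. The others were Afp (SD 1.09), Amer1 (1.06), Chrnb1 (1.02), Eml6 (1.00) and Garem1 (0.99). The other detected probes of Eml6 had SDs of 0.07 and 0.26. Of the 866 genes in the top decile of SD in XX, 274 (31.6%) were also in the top decile of pooled SD in the other groups.

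**Figure D4:**
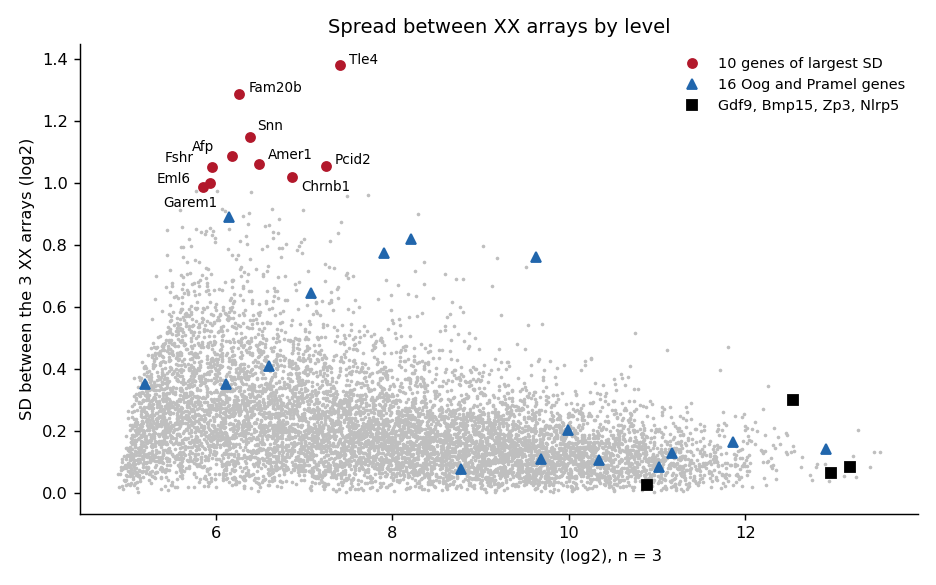
SD between the 3 XX arrays (log2) against the mean of the same arrays for the 8657 detected genes, 1 grey point per gene. The 10 genes of largest SD (red) lie between 5.86 and 7.40 in mean, and 5 of the 16 Oog and Pramel genes (blue) stand above the cloud at their level, whereas Zp3, Nlrp5 and Gdf9 lie at 0.09 or less.

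Oog and Pramel genes, members of a leucine-rich repeat family expressed in the germ line and clustered in the genome, included several that differed together between the XX pools. Oog2 read 9.16, 7.81 and 7.67, Pramel27 10.51, 9.16 and 9.21, and Pramel22 8.78, 7.62 and 7.32. Pramel12 read 7.82, 6.70 and 6.70, and Pramel14 7.09, 5.32 and 6.04. In each of these 5 genes array 1 was the high one, by 1.12 to 1.41 over the mean of the other 2. Over all detected genes, array 1 was at least 2-fold above that mean in 87 (1.00%) and at least 2-fold below in 58 (0.67%). Others of the family were steady, such as Pramel25 (12.92 ± 0.14), Pramel13 (11.03 ± 0.09) and Pramel37 (8.78 ± 0.08). These genes were singled out after their values were seen, and copies may share probes.

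Oog2 also differed between arrays of other groups. In Zfy2_nf, Oog2 read 9.12 on array 1, which lay on slide 1, and 7.60 and 7.89 on arrays 2 and 3, and Pramel22 read 9.06, 7.52 and 7.52. In Zfy1_hi, all on slide 3, Oog2 read 7.85, 6.70 and 9.03. In Zfy1_lo it read 8.78, 8.74 and 8.74 over both slides. It read 9.12, 8.76 and 8.96 in Zfy2_Eif2s3y, all on slide 2, and 8.16, 7.83 and 8.18 in Zfy2, all on slide 3. Over the 15 arrays outside XX, Oog2 spanned 6.70 to 9.12 around a median of 8.74. Of all 18 arrays, 5 of 6 on slide 2, 3 of 6 on slide 1 and 1 of 6 on slide 3 were at or above that median.

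The slide was tested for all genes in the 12 arrays of batch 1. Each of the groups XX, Zfy2_nf and Zfy1_lo was spread over slide 1 (2 arrays) and slide 2 (1 array). In limma with a slide term, 1 of 12182 genes was called at an adjusted p under 0.05 (0.00821%), and 1185 had an unadjusted p under 0.05. That gene was Hormad2, which encodes a protein of unsynapsed meiotic chromosome axes. It read 6.17 on XX array 1 and 4.70 and 5.04 on the others, 5.96 against 4.75 and 5.14 in Zfy2_nf, and 5.80 against 4.38 and 4.40 in Zfy1_lo. The slide 2 array was the highest in each of these 3 groups, by 1.24 in the fit (log2, SE 0.14, limma adjusted p = 0.043). In these groups its probe was above background on all 3 slide 2 arrays but on only 2 of the 6 slide 1 arrays. The difference was thus taken partly against background values. In Zfy2_Eif2s3y, all on slide 2, Hormad2 read 5.50, 5.25 and 5.08, below the slide 2 arrays of the other 3 groups. The call was lost without any 1 of the 9 arrays except Zfy2_nf array 2, with differences of 1.16 to 1.35 in these fits. With normexp background correction without detection p-values the difference was 0.62, and in the deposited matrix 0.54, neither of them called. Plekhb2 and Pomk (both limma adjusted p = 0.132), Yme1l1 (0.79) and Cmtm2a (0.83, both 0.218) had the next smallest p and were not called. No difference is given for Plekhb2 and Pomk, which were above background on 0 of the 6 slide 1 arrays. The 2 slides did not overlap over these 9 arrays in 554 genes (4.55%).

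XX oocytes were then compared with the mean of Zfy2_nf and Zfy1_lo, to ask which baseline levels set the reference genotype apart from its nearest transgenic groups. In limma, 2 of 12182 genes were called (0.0164%), both higher in XX, while 1101 had an unadjusted p under 0.05. Galntl5, of the GalNAc transferase family, read 9.14, 9.21 and 9.10 in XX (9.15 ± 0.05, SD, n = 3), 6.16, 6.50 and 5.62 in Zfy2_nf and 8.03, 9.29 and 8.09 in Zfy1_lo. Zfy1_lo array 2 was above every XX array, so the groups overlapped. On the 9 arrays of the other groups it read 4.61 to 5.93. The difference was 1.86 (log2, SE 0.27, limma adjusted p = 0.0361).

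Secisbp2, which is needed to read selenocysteine codons, read 7.35, 6.48 and 7.0 in XX, 5.63, 6.18 and 5.57 in Zfy2_nf, and 5.94, 5.85 and 5.89 in Zfy1_lo. All XX arrays were above the other 6, by 1.10 in the fit (SE 0.17, limma adjusted p = 0.0462). Averaged over its probes the difference was 0.38 and was not called (limma adjusted p = 0.314). Zfp982 (0.62), Pls3 (1.03) and Clmp (0.67) had the next smallest p and were not called (limma adjusted p = 0.0593 for each). XX arrays were all above or all below the other 6 in 446 genes (3.66%).

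The number of calls moved with single arrays. With XX arrays 1, 2 and 3 left out in turn, 2, 1 and 0 genes were called. The 2 genes called without XX array 1 were Cmklr1 and Tmem38a, so that neither Galntl5 (limma adjusted p = 0.0605) nor Secisbp2 (0.0774) was among them, and the 1 called without XX array 2 was Secisbp2. The number was 0, 4 and 0 without Zfy2_nf arrays 1, 2 and 3, and 0, 1 and 7 without Zfy1_lo arrays 1, 2 and 3. Over the main setting and its alternatives, the adjusted p of Galntl5 ranged from 8.94e-04 to 0.532 and that of Secisbp2 from 0.00836 to 0.545. These 25 brightest genes and the marker genes were not among the calls.

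**Figure D5:**
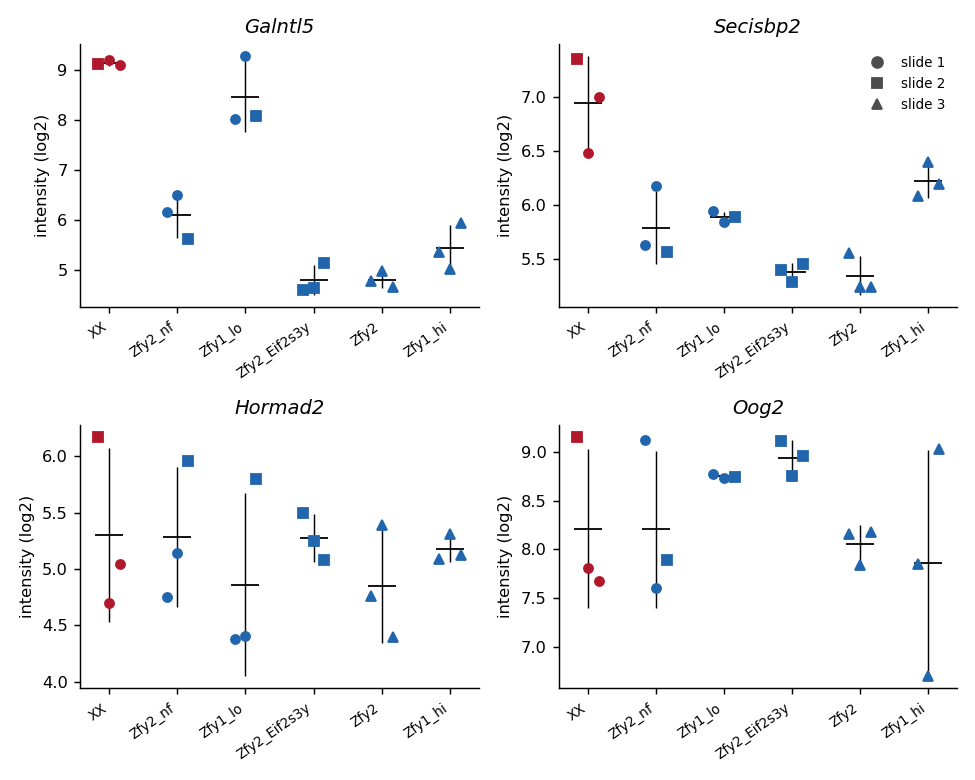
Normalized intensity (log2) of Galntl5, Secisbp2, Hormad2 and Oog2 on every array by genotype, with symbols for the slide, red for XX, and the mean and SD (n = 3) as bars. Secisbp2 is highest in XX, Hormad2 is highest on the slide 2 array in XX, Zfy2_nf and Zfy1_lo, and Oog2 splits within XX, Zfy2_nf and Zfy1_hi.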

How the data were processed

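RNA was extracted from pooled oocytes, amplified to cDNA and labelled with biotin, per the labels' protocols, and hybridized to Illumina mouse bead arrays. GenomeStudio is named per the submitters' processing notes, with no version or settings. The deposited table holds, per the file headers, a non-normalized intensity and a detection p-value for 45281 probes on each of 18 arrays, and the deposited series matrix holds a second, normalized intensity whose method is not given in the sources used here. Of the probes, 34885 have 1 gene symbol, 18 several and 10378 none in the platform annotation, and 10 probes had their symbol updated through RefSeq.

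Intensities were corrected with neqc of limma 3.58.1 (R 4.3.3), with the background inferred from detection p-values and an offset of 16, and the 18 arrays were quantile normalized together. A gene is represented by its brightest detected probe over all arrays. A gene was tested if a probe was detected on at least 3 arrays. The limma fit of 6 group means had 12 residual degrees of freedom, and the fit with a slide term had 7. P-values are two-sided, adjusted by Benjamini-Hochberg over 12182 genes, with calls at an adjusted p under 0.05. The arrays give signal, not counts, and their number limits the precision. The fits were tested on simulated data.

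The members and gene lists were chosen with earlier results of these data known. Named genes are the 25 of highest mean, with clone and locus names left out, the 10 of largest SD and up to 6 of highest mean in each list. Also named are the oocyte, granulosa and Y-chromosomal markers with a probe, and 3 genes on either side of the detection limit. The called genes or the 5 of smallest p in each comparison were added. Theca, endothelial and male germ cell markers are named in part, and blood markers are given by number only. Other members named, above all those not detected, were chosen after their values were seen. Alternatives changed the background correction, normalization, detection limit, probe summary, slide block, arrays in the fit and replicate left out. Probes with no single symbol were not named.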

Additional observations from a re-analysis of the deposited data

How the results depend on the processing

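The number of genes detected on all XX arrays, 8657, was 8046 with a detection p-value under 0.01 and 9011 to 9065 without 1 XX array. Background correction and normalization do not enter it, and without a detection limit it has no value. The strong decile shared 866 of 866 genes with normexp, with the deposited matrix and with XX arrays normalized alone, and 862 with cyclic loess. These settings largely keep the order of probes within each array, so this sharing was mostly fixed in advance. With the mean over probes, which can change the order, 593 genes (68.5%) were shared.

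The median SD in XX, 0.185, was 0.140 with normexp, 0.132 in the deposited matrix and 0.150 without a detection limit. It was 0.130 to 0.165 without 1 XX array, but an SD of only 2 arrays is not directly comparable with the main value. The number of calls of XX against the mean of Zfy2_nf and Zfy1_lo, 2, was 5 with normexp and in the deposited matrix. It was 4 without a detection limit, and 1 with the mean over probes, with slide as a fixed block and in batch 1 alone. With cyclic loess and within slide 1 it was 0. Within slide 2 these 3 groups had 1 array each and the spread came from Zfy2_Eif2s3y alone, so no number is given. The differences there were 2.28 for Galntl5 and 1.62 for Secisbp2. The 5 and the 4 included Galntl5 and Secisbp2. With the mean over probes and with the slide block the 1 call was Galntl5, and in batch 1 alone it was Mb21d2. Leaving out 1 array gave 0 to 7. The number of calls between slides, 1, was 2 without a detection limit and 0 with normexp, in the deposited matrix, in the 9 arrays of XX, Zfy2_nf and Zfy1_lo alone and with the replicate block, and 0 to 1 without 1 array. The cause of these changes was not tested.

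With the replicate number as a block, 2 genes were called in the first comparison (limma), with Pls3 in (adjusted p = 0.0433) and Secisbp2 out (adjusted p = 0.0796). The numbers did not pair the samples. Deviations of same-numbered arrays correlated at -0.137 to 0.162, above 0.1 in 1 of 9 pairs, and 4 of 9 samples correlated best with their own number. Dim probes limit the lower end, since 3016 genes were detected on only some XX arrays.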
